A study of Piaractus mesopotamicus with 9 samples.

Results

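The transcripts described here encode 10 enzymes of deoxynucleotide and pyrimidine synthesis in cultured myotubes of the pacu, Piaractus mesopotamicus, a South American freshwater fish. The members were the rows of the contig tables whose cleaned gene name was rrm1, rrm2, rrm2b, tyms, dhfr, dut, tk1, cad, umps or ctps1a. All 10 names were found, among 19365 names in the whole series, and they carried 27 of the 69932 annotated contigs. A contig is a transcript sequence assembled from the reads without a genome. Testing was limited to contigs averaging at least 10 raw counts across the 9 libraries, which left 22 contigs of 9 members among 35575 contigs and 13162 names of the series.

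Cells need deoxynucleotides to copy and repair DNA, and ribonucleotide reductase makes them by removing an oxygen from ribonucleotides. Pyrimidine rings are built from glutamine, bicarbonate and aspartate by a short chain of enzymes that ends in UMP, from which the uridine, cytidine and thymidine nucleotides derive. Thymidylate is then made either by methylating dUMP with a folate cofactor or by phosphorylating thymidine. In mammalian cells several of these enzymes are made mainly in the S phase of the cell cycle, and differentiated myotubes, which have left the cycle, are known for low levels of them.

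The cells were primary myoblasts from fast-twitch muscle of juvenile pacu, pooled from several fish for each culture and grown until myotubes had formed at day 8. AA myotubes spent 12 h in amino acid-free medium and then 24 h in a DMEM-based medium that holds amino acids, so they differed from the others in the base of the medium as well. IGF1 myotubes spent the same 12 h without amino acids and then 24 h in medium still free of amino acids, to which the growth factor IGF1 (recombinant, gilthead sea bream) was added. CTR myotubes were left without amino acids for the whole 36 h. All groups thus shared the amino acid deprivation, and none was kept in full medium. The treatment field of the AA and IGF1 labels gives 12 h in place of the 24 h used here.

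Each group had 3 libraries from 3 independent cultures, made from poly(A) RNA. Raw counts summed to between 1366043 in AA replicate 3 and 53525876 in IGF1 replicate 3, a 39.2-fold range. In AA replicate 3, 3 raw counts corresponded to 21.1 normalized counts and 15.1% of the tested contigs were at 0, whereas in IGF1 replicate 3 they corresponded to 0.599. Among the 23 names in a list of muscle cell markers, 16 were tested. In AA against CTR 9 rose and 1 fell, beside 6.61% and 6.50% of all tested names. In IGF1 against CTR 4 rose and 1 fell, beside 3.09% and 3.31%. The skeletal actins acta1a and acta1b and the myosin myhz1.1 were not among the names of the table, and were not used in this check. Markers of immune cells summed to at most 8.39 normalized counts in any library and those of erythroid cells to at most 0.799, whereas fibroblast markers, collagens included, summed to 893571 or more. Only 3 of the 14 immune names and 1 of the 6 erythroid names were among the annotated names, and 0 were tested. The low sums therefore cannot show that such cells were absent. The muscle markers summed to between 3616 and 8261 in a library, endothelial ones to between 316 and 872, and adipocyte ones to between 176 and 419. Epithelial ones, of which only krt4 and krt8 were tested, summed to between 18331 and 53905.

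In the comparison of AA with CTR, the reductase transcripts rrm1 and rrm2 and the thymidylate transcripts tyms and tk1 were higher in AA. By the quasi-likelihood test of edgeR at an adjusted p of 0.05 or less, 4 of the 9 tested members rose (rrm1, rrm2, tyms and tk1), each by at least 2-fold, and 0 fell. Of these, tk1 met the filter only through its AA and IGF1 counts, and without it 3 of 8 rose. Among all 13162 tested names, 6.61% rose and 6.50% fell in the same comparison. The members' median log2 fold-change, with tk1 included, was 1.30, beside 0.03 over all names. Because tk1 lay above this median, the median without it would be lower. Every AA library lay above every CTR library for 5 of the 9, tk1 among them, which was the case for 16.6% of all names.

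IGF1 against CTR gave fewer calls. Only rrm2 and tk1 rose, 2 of 9 (1 of 8 without tk1), and 0 fell, where 3.09% of all names rose and 3.31% fell. The median log2 fold-change of the members, with tk1 included, was 0.17, beside 0.05 over all names. It too would be lower without tk1. In none of the 3 comparisons did a member pass in the lower direction at an unadjusted p of 0.05, by edgeR, DESeq2 or limma. For 3 of the 9, tk1 among them, every IGF1 library was above every CTR library, against 16.4% of names. For tk1 this rests on 2 raw counts in IGF1 replicate 2, under the floor of 3.

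AA and IGF1 were also compared directly. In AA, rrm1 and rrm2 were higher than in IGF1, 2 of 9 members, and 0 were lower, where 4.29% of all names were higher and 4.76% lower. The members' median log2 fold-change, with tk1 included, was 0.72, and that of all names was -0.01. Leaving out tk1 would lower the members' median here as well. AA libraries did not overlap with IGF1 libraries for 5 members, tk1 among them, all higher in AA, and this held for 13.1% of names. AA and IGF1 were set against the same CTR libraries, so these comparisons are not independent of each other.

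**Figure D1:**
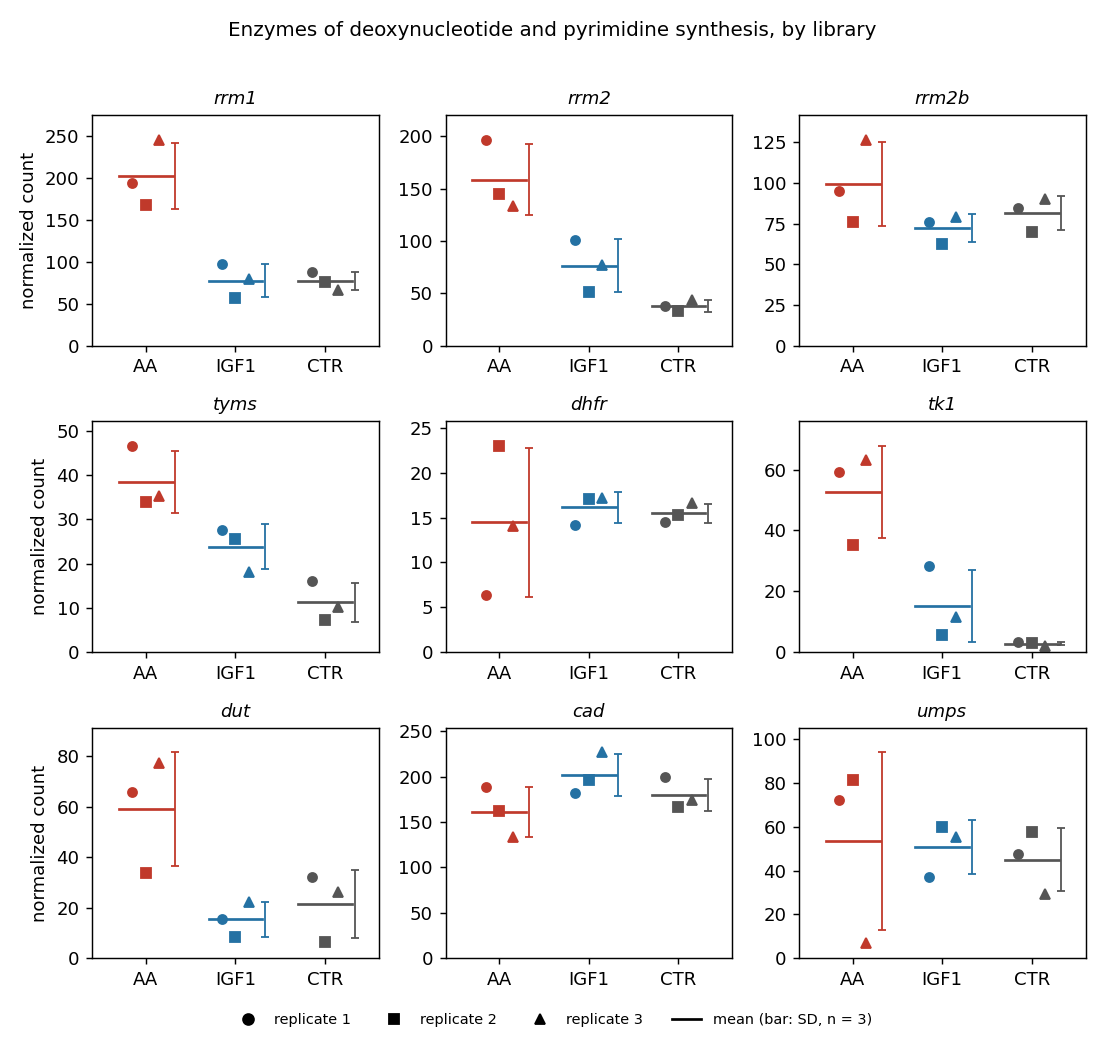
Normalized counts (y axis, linear, from 0) of the leading contig of each of the 9 tested members in the AA, IGF1 and CTR libraries; symbols are replicates 1 to 3, lines are means and bars are the SD (n = 3). The 3 AA libraries lie above the 3 CTR libraries for rrm1, rrm2, tyms, dut and tk1, whereas the groups overlap for rrm2b, dhfr, cad and umps.

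Ribonucleotide reductase joins a large subunit, which holds the catalytic and regulatory sites, to a small subunit that carries the tyrosyl radical. The large subunit is encoded by rrm1. Its leading contig, Duran_pc_TRINITY_DN5478_c1_g1_i3, had 195, 168 and 246 normalized counts in AA replicates 1, 2 and 3, against 97.1, 57.0 and 79.1 in IGF1 and 88.4, 75.9 and 66.5 in CTR. The lowest AA library was above the highest of the other 6, and IGF1 and CTR overlapped. The log2 fold-change of AA to CTR was 1.34 ± 0.25 (SE), or 2.53-fold with a 95% interval of 1.77 to 3.61 and an adjusted p of 0.00125. AA was also higher than IGF1, by 1.26 ± 0.25 on the log2 scale (adjusted p = 0.00282). IGF1 to CTR gave 0.08 ± 0.24 (adjusted p = 0.926), with an interval of 0.745-fold to 1.49-fold. All 3 contigs of rrm1 rose in AA against CTR, with log2 fold-changes between 1.33 and 1.70.

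The small subunit of dividing cells is encoded by rrm2, a transcript that in mammals rises in S phase. Its leading contig, Duran_pc_TRINITY_DN8407_c0_g1_i3, had 197, 145 and 134 normalized counts in AA, 101, 51.3 and 76.9 in IGF1, and 37.8, 32.9 and 43.8 in CTR. The 3 groups did not overlap, with AA highest and CTR lowest. The means were 158 ± 33.8 in AA, 76.5 ± 25.02 in IGF1 and 38.2 ± 5.51 in CTR (SD, n = 3 each).

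For the leading contig, the rise of rrm2 in AA against CTR was 2.05 ± 0.29 on the log2 scale, or 4.13-fold (2.72 to 6.27), with an adjusted p of 9.72e-05. In IGF1 against CTR it was 1.05 ± 0.28, or 2.07-fold (1.38 to 3.10; adjusted p = 0.0292), and AA to IGF1 was 0.997 ± 0.280 (adjusted p = 0.0315). The smaller of these differences rested on few libraries. Without CTR replicate 1, 2 or 3 or IGF1 replicate 1 or 3, the adjusted p of IGF1 to CTR lay between 0.0775 and 0.212, and log2 fold-changes over all 9 omissions were 0.81 to 1.21. Without AA replicate 1 or 2 or IGF1 replicate 2 or 3, that of AA to IGF1 lay between 0.0665 and 0.157. The call of AA to CTR held with each of the 9 libraries left out.

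The other small subunit, rrm2b, is induced by p53 in mammals, where it supplies deoxynucleotides for repair and for mitochondrial DNA outside S phase. Its leading contig, Duran_pc_TRINITY_DN5873_c0_g1_i1, had 95.2, 75.7 and 127 normalized counts in AA, 75.8, 62.7 and 78.7 in IGF1, and 84.3, 70.1 and 90.2 in CTR, and the groups overlapped. The log2 fold-change was 0.17 ± 0.27 in AA (adjusted p = 0.758; 95% interval -0.39 to 0.73) and -0.14 ± 0.25 in IGF1 (adjusted p = 0.851; -0.67 to 0.38), each against CTR. Neither interval reached a 2-fold difference.

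Because a ratio of counts within a library needs no scaling between libraries, the small subunits were also compared that way, with the raw counts of all contigs of a name summed and 0.5 added to each sum. The ratio of rrm2 to rrm2b was 2.31, 2.13 and 1.11 in AA, 1.32, 0.815 and 1.04 in IGF1, and 0.451, 0.492 and 0.489 in CTR. Every AA and every IGF1 library was above every CTR library, while AA replicate 3 fell inside the range of IGF1. The mean log2 ratio differed by 1.88 between AA and CTR (exact permutation test, two-sided, p = 0.1) and by 1.13 between IGF1 and CTR (exact permutation p = 0.1). Between AA and IGF1 it differed by 0.76 (exact permutation p = 0.2). Adjusted over the 3 comparisons by the Benjamini-Hochberg method, these exact p-values were 0.15, 0.15 and 0.2. With 3 libraries against 3 there are 20 splits and no p under 0.1 can be reached, so the ratio cannot pass 0.05. The ratio says nothing of the level of either gene, since contig lengths were not used.

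**Figure D2:**
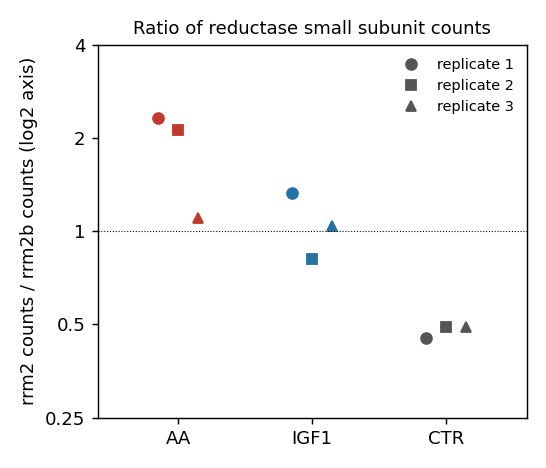
Ratio of rrm2 to rrm2b raw counts, summed over the contigs of each name with 0.5 added (y axis, log2 scale; dotted line at 1), in each AA, IGF1 and CTR library; symbols are replicates 1 to 3. The CTR libraries lie together between 0.451 and 0.492, below all 6 AA and IGF1 libraries.

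Thymidylate synthase, encoded by tyms, methylates dUMP to dTMP. Its leading contig, Duran_pc_TRINITY_DN3420_c0_g1_i1, had 46.6, 33.8 and 35.2 normalized counts in AA, 27.6, 25.6 and 18.0 in IGF1, and 16.1, 7.30 and 10.3 in CTR. In this contig the groups did not overlap, although AA replicate 3 held only 5 raw counts of it. The rise in AA against CTR was 1.78 ± 0.47 on the log2 scale, or 3.44-fold (1.74 to 6.80; adjusted p = 0.0174). The second contig of tyms also rose, by 2.07 (adjusted p = 0.0174). IGF1 to CTR was 1.06 ± 0.45 (adjusted p = 0.222) and AA to IGF1 0.72 ± 0.46 (adjusted p = 0.406), neither of which passed the test. The call of AA to CTR was lost without CTR replicate 2 (1.57, adjusted p = 0.0810), CTR replicate 3 (1.71, adjusted p = 0.0853) or AA replicate 1 (1.61, adjusted p = 0.0669).

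Dihydrofolate reductase, encoded by dhfr, returns the folate that thymidylate synthase oxidizes to its reduced form. Its only contig, Duran_pc_TRINITY_DN15270_c0_g1_i1, had 6.35, 23.0 and 14.1 normalized counts in AA, 14.2, 17.1 and 17.2 in IGF1, and 14.5, 15.3 and 16.6 in CTR. The AA libraries spread to both sides of the others, and AA replicates 1 and 3 held 3 and 2 raw counts. The log2 fold-change of AA to CTR was 0.04 ± 0.52 (adjusted p = 0.974) with an interval of -1.05 to 1.14, which includes a 2-fold change in either direction, so none was detectable at this depth. IGF1 to CTR was 0.05 ± 0.49 (adjusted p = 0.977). Its partner tyms thus passed the test in AA and dhfr did not; the difference between them was not tested.

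Cytosolic thymidine kinase, encoded by tk1, salvages thymidine into dTMP and is in mammals among the most strongly S phase-bound of these enzymes. The tested contig, Duran_pc_TRINITY_DN15887_c0_g1_i1, had 59.3, 35.2 and 63.3 normalized counts in AA, 28.3, 5.70 and 11.4 in IGF1, and 3.21, 2.92 and 2.12 in CTR. No library of one group overlapped with another group. The counts behind these values were low, with 28, 52 and 9 raw counts in AA, 40, 2 and 57 in IGF1, and 4, 4 and 6 in CTR. The 14 raw counts of CTR alone would not have met the filter, so tk1 was tested because of its counts in AA and IGF1.

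For tk1 the log2 fold-change of AA to CTR was 4.18 ± 0.63, or 18.1-fold with a 95% interval of 7.29 to 45.2 (adjusted p = 0.000187). It rests on 4, 4 and 6 raw counts in CTR, beside a floor of 3. IGF1 to CTR was 2.596 ± 0.620, or 6.04-fold (2.46 to 14.9; adjusted p = 0.0148). AA to IGF1 was 1.59 ± 0.54 (adjusted p = 0.0796). The call in IGF1 was lost without IGF1 replicate 1 (1.86, adjusted p = 0.168), CTR replicate 2 (2.66, adjusted p = 0.0543) or CTR replicate 3 (2.38, adjusted p = 0.114). The call of AA to CTR held in each of the 9 omissions. This adds no support, since tk1 met the filter only through its AA and IGF1 counts. A second contig of tk1, below the filter, had 22 raw counts in AA, 17 in IGF1 and 4 in CTR.

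The enzyme encoded by dut splits dUTP, which keeps uracil out of DNA and yields the dUMP that thymidylate synthase uses. Its leading contig, Duran_pc_TRINITY_DN4675_c0_g1_i4, had 65.6, 33.8 and 77.3 normalized counts in AA, 15.6, 8.55 and 22.2 in IGF1, and 32.1, 6.57 and 26.2 in CTR. All AA libraries were above all others, the closest pair being AA replicate 2 and CTR replicate 1. The differences did not pass the test, with log2 fold-changes of 1.30 ± 0.53 for AA to CTR (adjusted p = 0.125), -0.33 ± 0.51 for IGF1 to CTR (adjusted p = 0.826) and 1.63 ± 0.54 for AA to IGF1 (adjusted p = 0.0737).

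The 6 contigs named dut come from 1 gene of the assembly and did not move alike. Contig i3 had 29.6, 23.0 and 49.2 normalized counts in AA, 2.83, 5.70 and 9.99 in IGF1, and 6.43, 4.38 and 10.6 in CTR. It rose in AA against CTR by 2.03 ± 0.62 on the log2 scale (adjusted p = 0.0385) and was higher than in IGF1 by 2.15 ± 0.64 (adjusted p = 0.0431). The other 4 contigs, i1, i7, i13 and i14, had log2 fold-changes of AA to CTR between 0.07 and 0.39, none of which passed the test. Contig i1, for example, had 46.6, 23.7 and 28.1 normalized counts in AA, 15.6, 8.55 and 22.4 in IGF1, and 37.8, 10.95 and 32.2 in CTR, and its AA and CTR libraries overlapped. Summed over the 6 contigs, dut gave a log2 fold-change of 0.69 ± 0.39 in AA against CTR (adjusted p = 0.308). Contigs of 1 assembly gene can share reads, so the division of counts among them is uncertain. The difference between contigs was not tested.

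**Figure D3:**
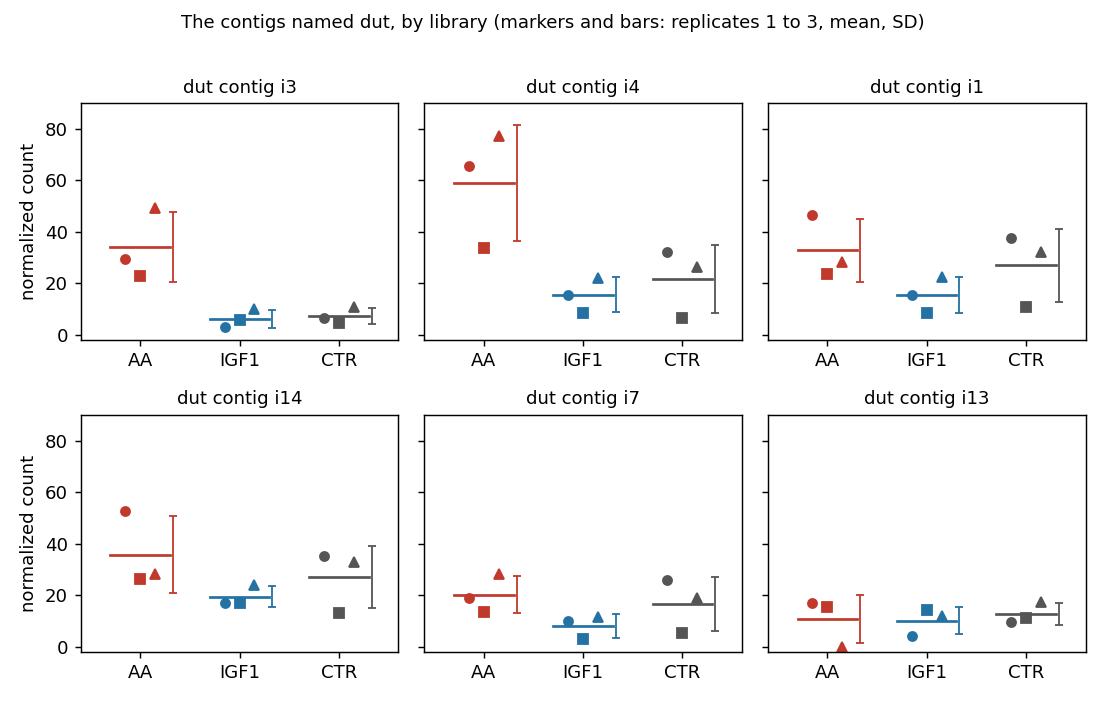
Normalized counts (y axis, linear, the same in all panels) of the 6 contigs named dut in the AA, IGF1 and CTR libraries; symbols are replicates 1 to 3 (circle, square, triangle), lines are means and bars the SD (n = 3). In contigs i3 and i4 the AA libraries lie above all others, whereas in i1, i7, i13 and i14 AA and CTR overlap.

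The members that build the pyrimidine ring, cad and umps, did not pass the test in any comparison. The enzyme dhodh, which acts between them, is not a member and is counted with the salvage list below. The multifunctional protein encoded by cad catalyses the opening steps, carbamoyl phosphate synthesis included, and in mammals is activated through the MTOR pathway. Its leading contig, Duran_pc_TRINITY_DN6688_c0_g1_i4, had 188, 162 and 134 normalized counts in AA, 181, 197 and 227 in IGF1, and 199, 166 and 174 in CTR. The groups overlapped, and the lowest of the 9 values was in AA replicate 3 and the highest in IGF1 replicate 3. The log2 fold-change was -0.13 ± 0.20 in AA (adjusted p = 0.752; 95% interval -0.54 to 0.29) and 0.18 ± 0.19 in IGF1 (adjusted p = 0.709; -0.21 to 0.56), each against CTR, and -0.30 ± 0.20 for AA to IGF1 (adjusted p = 0.426). Of all members cad was measured most tightly, with SEs of 0.20 or less, and none of its intervals reached a 2-fold difference.

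The closing steps to UMP are carried out by the protein of umps. Its leading contig, Duran_pc_TRINITY_DN7538_c0_g1_i1, had 72.0, 81.2 and 7.03 normalized counts in AA, 36.8, 59.8 and 55.4 in IGF1, and 47.4, 57.7 and 29.4 in CTR. AA replicates 1 and 2 were above every other library and AA replicate 3 below every other, the value there being 1 raw count. The remaining umps contigs had 0, 0 and 2 raw counts in AA replicate 3. The log2 fold-change of AA to CTR was 0.52 ± 0.42 (adjusted p = 0.493; interval -0.36 to 1.403), and without AA replicate 3 it was 0.81 (adjusted p = 0.133). IGF1 to CTR was 0.17 ± 0.41 (adjusted p = 0.899).

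CTP synthase, which aminates UTP to CTP, is represented by ctps1a. Another CTP synthase name, ctps1b, is not a member, and its contigs summed to 25.4, 39.2 and 84.4 normalized counts in AA, 45.4, 42.7 and 44.2 in IGF1, and 53.8, 67.2 and 71.4 in CTR. The 3 contigs of ctps1a, each from a separate gene of the assembly, held 12 raw counts in all, of which 2 were in AA, 8 in IGF1 and 2 in CTR. None met the filter, and no fold-change is given.

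**Figure D4:**
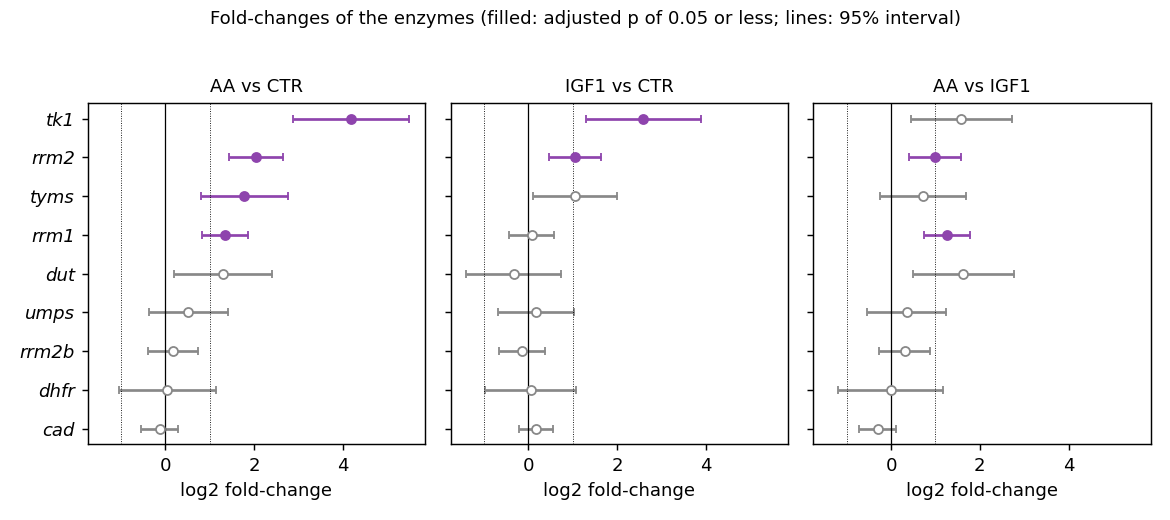
Log2 fold-changes (x axis) of the leading contig of the 9 tested members in AA vs CTR, IGF1 vs CTR and AA vs IGF1, with 95% intervals; filled points have an adjusted p of 0.05 or less in edgeR, the solid line marks 0 and the dotted lines a 2-fold difference. In AA vs CTR tk1, rrm2, tyms, rrm1 and dut lie above the dotted line at 1, of which dut did not pass the test, and in IGF1 vs CTR only tk1 and rrm2 pass the test.

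Proliferation markers were set beside these transcripts. Of 20 names in that list 9 were tested, and all 9 rose in AA against CTR, as did 6.61% of all names. For 5 of them (ccnb1, plk1, bub1ba, kif11 and cdc20) the CTR counts alone would not have met the filter, so they were tested because of their AA or IGF1 counts. The CTR counts of the others (top2a, ccna2, cdk1 and aurkb) did meet it. The whole list summed to 835 to 956 normalized counts in AA, 168 to 260 in IGF1 and 93.0 to 144 in CTR. The marker mki67, below the filter, was at 6.35, 10.8 and 28.1 normalized counts in AA, 1.42, 0 and 0.599 in IGF1, and 0, 1.46 and 0 in CTR. In IGF1 1 of the 9 rose against CTR (3.09% of all names), and 5 of 9 were higher in AA than in IGF1 (4.29% of all names). The 9 again include the 5 names tested only because of their AA or IGF1 counts. Of 11 tested fibroblast markers, 2 rose and 3 fell in AA against CTR (6.61% and 6.50% of all names). In IGF1 against CTR 7 of them rose and 0 fell (3.09% and 3.31% of all names). With the abundant collagens included, the fibroblast list summed to 893571 to 1008152 in AA, 1391172 to 1467289 in IGF1 and 926523 to 998366 in CTR. Epithelial markers summed to 18331 to 18724 in AA, 44460 to 50614 in IGF1 and 51865 to 53905 in CTR. Of 6 epithelial names only the keratins krt4 and krt8 were tested, and 2 fell in AA and 0 in IGF1 against CTR. The leading contig of krt8 had 10830, 11146 and 10932 normalized counts in AA and 31146, 32303 and 32417 in CTR. That of krt4 had 402, 371 and 394 in AA and 490, 623 and 592 in CTR. The part of these marker shifts in the results was not tested. In bulk RNA, fewer cells that make a transcript and less of it in each cell cannot be told apart.

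The counts of the lists that follow stand beside 6.61% of all names that rose and 6.50% that fell in AA against CTR, and 3.09% and 3.31% in IGF1 against CTR. For AA against IGF1, 4.29% of all names were higher in AA and 4.76% lower. The replication machinery is the main user of deoxynucleotides. Of 45 names for it 35 were tested. In AA against CTR 6 rose and 0 fell, and the 6 include mcm3, which met the filter only through its AA and IGF1 counts. At an unadjusted p of 0.05 in edgeR 1 was lower, and DESeq2 and limma called 0 lower. The median log2 fold-change, with mcm3 included, was 0.71. Among the names that rose, mcm4, a subunit of the replicative helicase, had 121, 50.04 and 42.2 normalized counts in AA and 12.9, 14.6 and 9.90 in CTR (log2 2.56, adjusted p = 0.00208). Its fellow subunits mcm5 and mcm6 rose by 2.46 and 2.17 on the log2 scale. Another subunit, mcm3, also passed the test, with 44.4, 35.2 and 28.1 normalized counts in AA and 0, 0 and 4.95 in CTR, but it met the filter only through AA and IGF1 and no fold-change is given. In IGF1 the edgeR test against CTR called 0 of the 35, with a median of 0.35. At an unadjusted p of 0.05, 2 were higher and 1 was lower, and at the adjusted threshold DESeq2 called 1 higher and 1 lower and limma 0. In AA, mcm4 and mcm7 were higher than in IGF1, by 1.74 and 1.497. For mcm7 the normalized counts were 205, 187 and 105 in AA, 56.0, 57.0 and 68.3 in IGF1, and 111, 103 and 106 in CTR. Against CTR it passed the edgeR test neither in AA (0.71, adjusted p = 0.0632) nor in IGF1 (-0.79, adjusted p = 0.0629). AA and CTR overlapped, and every IGF1 library was below every CTR library.

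The folate cycle feeds thymidylate synthase. Of its 13 tested names, 3 rose and 1 fell in IGF1 against CTR, and 1 rose and 1 fell in AA against CTR. The median log2 fold-change was 0.71 in IGF1 and 0.10 in AA. Mitochondrial enzymes made up the rises in IGF1. The mitochondrial serine hydroxymethyltransferase shmt2 had 658, 707 and 647 normalized counts in IGF1 and 252, 315 and 316 in CTR (log2 1.18, adjusted p = 6.63e-05). With it rose mthfd1l (1.14) and mthfd2 (0.80), whereas the mitochondrial folate carrier slc25a32a was lower in IGF1, with a log2 fold-change of -1.21. The cytosolic form shmt1 rose in AA against CTR by 2.31 (adjusted p = 0.00590), with 25.4, 41.9 and 70.3 normalized counts in AA and 11.2, 4.38 and 9.19 in CTR. The 4 that differed between AA and IGF1 were lower in AA, among them mthfd1l by a log2 fold-change of -1.39.

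The list for pyrimidine salvage, nucleotide kinases and transport, which also holds the synthesis enzymes dhodh and ctps1b, had 19 tested names. Of these, 1 rose in each comparison with CTR by edgeR and limma and 2 by DESeq2, and 0 fell by any of the 3 tools. At an unadjusted p of 0.05 in edgeR, 3 were lower in AA and 0 in IGF1. The median log2 fold-change was -0.0067 in AA and 0.36 in IGF1. Deoxycytidine kinase, dck, was the name that edgeR called higher in AA. It had 21.2, 21.6 and 14.1 normalized counts in AA and 4.02, 2.92 and 0.707 in CTR. Since dck met the filter only through AA and IGF1, no fold-change is given, and edgeR called no other name of the list higher in AA against CTR. The mitochondrial pyrimidine nucleotide carrier slc25a33 rose in IGF1 by 1.01 (adjusted p = 0.00959), with 159, 199 and 155 normalized counts in IGF1 and 69.9, 103 and 79.2 in CTR. Unlike tk1, the mitochondrial thymidine kinase tk2 did not pass the test against CTR, with log2 fold-changes of -0.63 in AA (adjusted p = 0.0703) and 0.19 in IGF1 (adjusted p = 0.708), and in AA it was lower than in IGF1 (-0.82, adjusted p = 0.025).

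Of 10 tested names for nucleotide breakdown, 1 rose in AA against CTR and 0 changed in IGF1, where 1 was higher and 1 lower at an unadjusted p of 0.05 in edgeR and DESeq2 and limma called 0. The median log2 fold-change was 0.31 in AA and 0.24 in IGF1. The ecto-5'-nucleotidase nt5e had 582, 486 and 555 normalized counts in AA and 281, 183 and 197 in CTR (log2 1.28, adjusted p = 0.000126). Since rrm2b is a target of p53 in mammals, 13 tested names of other p53 targets were set beside it, and 1 fell in each of AA and IGF1 against CTR while 0 rose by edgeR. At an unadjusted p of 0.05, 3 were higher in AA and 1 in IGF1, and DESeq2 called 1 of these in AA and 0 in IGF1 and limma 0. The median was -0.25 in AA and -0.12 in IGF1. The genes that fell were gadd45aa in AA (-1.05, adjusted p = 0.00489) and tp53inp1 in IGF1 (-0.71, adjusted p = 0.0283).

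Across the 9 libraries, the genes whose log2 counts, scaled to library size, were most like those of rrm2, among 5020 searched, were wipi1, snrnp200, ccdc57, rpz2 and rhbdf1b, with Pearson's r from 0.97 to 0.99. Among the members, tk1 (0.97), tyms (0.89) and rrm1 (0.83) were nearest to rrm2, while rrm2b was at 0.45 and cad at -0.25. For cad, dus3l (0.95), tpmt.1 (0.94), cops3 (0.91) and fpgs (0.90) were among the nearest, and among the members umps, at 0.70. These coefficients describe 9 points that share 3 treatments and unequal depth.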

How the data were processed

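Messenger RNA of 9 libraries, 3 each of AA, IGF1 and CTR, was analysed. The authors assembled trimmed reads (FastQC 0.11.8, Trimmomatic) with Trinity, named the contigs from BLASTx hits in OmicsBox, then aligned each library to them using Bowtie2. The counting tool is not given in the sources used here. The deposited whole-number counts per contig were not normalized. The deposited signal values are the same counts divided by DESeq2 median-of-ratios size factors, for contigs with a mean count of 10 or more, and are called normalized counts. Whether libraries of the same number share a culture is not stated.

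The tests used edgeR 4.0.16 (R 4.3.3) on raw counts: TMM, all 9 libraries, group as the only term, quasi-likelihood F test (legacy method), Benjamini-Hochberg adjustment over 35575 contigs. Each gene was represented by its contig with the highest mean normalized count. Rose and fell mean an adjusted p of 0.05 or less. SEs are log2 fold-changes over the square root of F, and intervals (95%) use the total (residual plus prior) degrees of freedom of the test, 18.8. Intervals and floors (3 counts) cover counting error and the spread between these libraries only. The members and lists were chosen with earlier results of these data known. From each list except markers, up to 5 genes with the smallest adjusted p were named. The genes most like rrm2 and cad were searched among names with a mean count of 100 or more, on log2 CPM with a prior count of 2. Of the genes so found, 1 is not reported here. Alternatives used DESeq2 1.42.0 and limma 3.58.1 on log2 values, other scalings and filters, counts summed per name, the replicate number as a block, and each library left out. Sequences were not used here.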

Additional observations from a re-analysis of the deposited data

Results flagged for a closer look

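For rrm1 the response to AA and the response to IGF1, each against CTR, differed. The direct comparison gave a log2 difference of 1.26 (edgeR, adjusted p = 0.00282), and all 3 AA libraries were above all 3 IGF1 libraries. For rrm2 the responses differed by 0.997 on the log2 scale (adjusted p = 0.0315), again with 3 of 3 AA libraries above 3 of 3 IGF1 libraries. The rrm1 difference passed the test with every library left out in turn, whereas that of rrm2 did not in 4 of the 9 omissions. These values are of the leading contigs. Contig i2 of rrm2 did not pass (1.07, edgeR, adjusted p = 0.0570), nor did contig i2 of rrm1 (1.57, adjusted p = 0.0548).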

How the results depend on the processing

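In AA against CTR, rrm1 and rrm2 kept their calls with each of the 9 libraries left out and in 11 other settings (DESeq2, the newer quasi-likelihood method, other scalings and filters, only the compared groups, the replicate block, summed counts, limma). The call of tk1 was kept as well, but tk1 met the filter only through its AA and IGF1 counts, so this adds no support. With tk1 included, the count of members that rose was 3 to 4 over the omissions and 4 or 5 otherwise. In IGF1 against CTR the count of 2 became 0 with counts summed per name and 0 with limma on the normalized counts, and 0 to 2 with a library left out. Summed per name, rrm2 gave 0.94 (adjusted p = 0.0947) and tk1 2.37 (adjusted p = 0.0538); with limma they gave 0.94 (adjusted p = 0.140) and 1.85 (adjusted p = 0.193). For AA against IGF1 the count of 2 became 4 with DESeq2 and 4 with library size only, where dut and tk1 were added, and 1 with only the compared groups, 1 with limma and 1 with a minimum of 2-fold, where rrm2 was lost; dut was also called without a filter (1.55, adjusted p = 0.0362) and tk1 with the newer method (1.51, adjusted p = 0.0193); the count was 1 to 3 with a library left out. The cause was not tested. The replicate block gave 5, 2 and 3 calls, adding dut in AA against CTR (1.57, adjusted p = 0.0266) and in AA against IGF1 (1.98, adjusted p = 0.0121). Residuals of same-numbered libraries correlated between -0.03 and 0.13 over 9 pairs, and those of unlike numbers between -0.10 and 0.06. The ranges overlap, so these values cannot decide whether the numbers pair the samples.

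Signs turned only for values that passed no test. For dhfr in AA against CTR the log2 fold-change was -0.00090 without a filter, -0.0747 with the replicate block, -0.0178 with summed counts, -0.25 with limma and -0.88 to 0.41 with a library left out. Against IGF1 dhfr was 0.15 with the newer method, 0.16 with library size only and -0.94 to 0.36 with a library left out. In AA against CTR cad was 0.0176 with library size only and umps -0.28 with limma. With limma rrm1 was -0.0084 in IGF1 against CTR and umps -0.48 in AA against IGF1. With a library left out, IGF1 against CTR ranged from -0.10 to 0.20 for rrm1, -0.0213 to 0.14 for dhfr, -0.74 to 0.011 for dut and -0.0806 to 0.40 for umps, and AA against IGF1 from -0.0214 to 0.64 for umps. Library size only moved the median of all contigs to 0.12 in AA against CTR and 0.15 in AA against IGF1, limma to -0.13 in AA against CTR, and no filter to -0.11 in AA against IGF1. The rrm2 to rrm2b ratio kept its direction in all settings. At the depth of AA replicate 3, dhfr, tk1 and umps had 2, 9 and 1 raw counts in their leading contigs.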
